A study of Mus musculus with 28 samples.

Results

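The DNA methylation machinery was followed here through 5 genes, the DNA methyltransferases Dnmt1, Dnmt3a and Dnmt3b and the cofactors Uhrf1 and Hells, in normal and leukaemic mouse blood progenitors. They were taken by symbol, from the probe sets whose platform annotation named exactly 1 gene. The 5 genes had 12 probe sets among 20380 with a single gene, which cover 12393 genes. Dnmt3a had 5 probe sets, Dnmt1, Dnmt3b and Uhrf1 had 2 each, and Hells had 1. All 12 passed the filter on low values in both experiments.

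DNA methylation in mammals is the addition of a methyl group to cytosine, mostly where a guanine follows (CpG). Dnmt1 is the maintenance enzyme, which copies the methylation of the parental strand onto the new strand after replication, and Uhrf1 recognises the hemimethylated sites left by replication and recruits Dnmt1 to them. Dnmt3a and Dnmt3b are the de novo enzymes, which methylate unmodified sites. Hells, also called Lsh, is a chromatin remodeller that helps methylation reach compacted DNA. In blood formation, loss of the de novo enzymes is known to impair the differentiation of stem cells, and DNMT3A is often mutated in human acute myeloid leukaemia.

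RNA from about 10000 bone marrow cells per sample was amplified, labelled with biotin and measured on 28 Affymetrix arrays in 2 experiments that the submitters call noncomparable. One of them, the transduced experiment, set 3 arrays of granulocyte-macrophage progenitors (GMP) with GFP, a fluorescent reporter, against 3 arrays of GMP with MLL-AF9, a fusion of the histone methyltransferase MLL with its partner AF9 that drives acute leukaemia. In the sorted experiment, all populations were lineage-negative and kit-positive. Haematopoietic stem cells were represented by a sca-positive, HSC-enriched fraction (HSC, 5 arrays), and the sca-negative cells were common myeloid progenitors (CMP, 4 arrays), GMP (4 arrays), megakaryocyte-erythroid progenitors (MEP, 3 arrays) and L-GMP (6 arrays). L-GMP are taken here, from the title of the series, as the leukaemic counterpart of GMP after MLL-AF9; their labels state only the surface markers. The labels give no strain, age, promoter, clone or pooling, and nothing in them says that replicates were separate animals, so p-values measure a spread between samples that may be technical.

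Levels are given as log2 of the scaled array intensity. Probe sets differ in how strongly they bind, so levels are compared between samples and never between genes. A gene is represented by its brightest probe set, and "called" means an adjusted p under 0.05 in the moderated test of limma over all genes of the experiment, 8422 in the sorted and 7235 in the transduced one. The floor below which no level is read was 5.27 in the sorted and 6.29 in the transduced experiment. Same-group arrays correlated at 0.937 to 0.984 in the sorted and at 0.944 to 0.990 in the transduced experiment. The labelled populations carried their defining markers in part. Procr and Hlf were highest in HSC, Klf1 and Car1 in MEP, and Elane was high in GMP (12.60) and L-GMP (12.36). Some markers did not follow the labels. The stem marker Slamf1 averaged highest in MEP. Mecom averaged 5.70 to 5.82 in the sorted populations, too near the floor to show an order. The megakaryocyte-erythroid markers Itga2b and Pf4 averaged highest in CMP, Pf4 only slightly above MEP. The labels of CMP and GMP name the same Fc receptor status and put CD34 low in CMP, whereas Fcgr3 averaged 5.47 in CMP and 9.51 in GMP and Cd34 averaged 9.57 in CMP and 8.94 in GMP. RNA was taken from bulk samples, in which fewer expressing cells and less RNA per cell cannot be told apart.

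The sequences just before the start sites are shown because Dnmt1, Uhrf1 and Hells followed the replication genes over the sorted arrays while Dnmt3a and Dnmt3b did not, as described below. All 5 genes matched the RefSeq promoter table (assembly GRCm38.p6), with 10 windows of 250 bases before and 50 after an annotated start. 4 forms of the 8-base motif bound by E2F factors, which drive genes of DNA replication, were searched on both strands, namely TTTGGCGC, TTTCGCGC, TTTCCCGC and TTTGCCGC. They occurred in 744 of 32851 windows (2.265%) and in 704 of 27025 genes (2.605%). Hells had TTTCCCGC 62 bases before its start, inside chr19:38930740-38930989 (plus strand), printed whole with the motif in capitals. Uhrf1 had TTTCGCGC 185 bases before its second start, inside chr17:56304117-56304146 (plus strand). Before the last of its 3 annotated starts, Dnmt1 had the same motif on the opposite strand, inside chr9:20952824-20952853 (minus strand), and it had TTTGGCGC 33 bases after that start. Dnmt3b (chr2:153649199-153649448, plus strand) and the 3 windows of Dnmt3a held none of the 4 forms, which says only that these letters are absent from these windows. All sequences run from 5′ to 3′ on the strand of the gene.
Hells: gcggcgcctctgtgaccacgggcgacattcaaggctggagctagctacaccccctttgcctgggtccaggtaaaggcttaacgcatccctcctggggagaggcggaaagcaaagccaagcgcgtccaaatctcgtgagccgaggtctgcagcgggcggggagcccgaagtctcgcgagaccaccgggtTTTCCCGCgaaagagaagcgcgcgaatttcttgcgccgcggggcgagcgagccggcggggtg
Uhrf1: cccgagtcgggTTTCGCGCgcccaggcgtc
Dnmt1: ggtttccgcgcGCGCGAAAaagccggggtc
Dnmt3b: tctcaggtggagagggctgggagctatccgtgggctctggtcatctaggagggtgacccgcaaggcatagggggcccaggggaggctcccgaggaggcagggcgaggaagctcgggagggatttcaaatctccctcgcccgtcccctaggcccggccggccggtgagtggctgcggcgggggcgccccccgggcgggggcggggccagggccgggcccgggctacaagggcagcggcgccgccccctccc
The windows with a match in Dnmt1, Uhrf1 and Hells held 33, 33 and 34 CpG sites in 300 bases, and the windows of these genes without a match held 2 and 12 (Dnmt1) and 12 (Uhrf1). The window of Dnmt3b held 30 and those of Dnmt3a held 46, 47 and 18. The median over all windows was 7. Each form of the motif holds a CpG, and its share was counted over all windows, not over windows as rich in CpG as these. The match is a description of the sequence and not a site of binding.

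By their brightest probe sets, the 2 de novo enzymes were highest in the stem cell fraction, and Dnmt3b was lowest in L-GMP and Dnmt3a in L-GMP and MEP. Dnmt3b stood at 10.58, 10.78, 10.77, 10.82 and 10.41 in the 5 HSC arrays and at 10.31, 10.51, 10.69 and 10.44 in the 4 CMP arrays. It was 9.50, 9.98, 9.69 and 9.41 in GMP and 10.04, 9.80 and 9.64 in MEP. In L-GMP it was 7.76, 8.02, 7.88, 8.47, 7.96 and 8.22. Every L-GMP array lay below every array of the 4 normal populations, a pattern that 4.94% of all genes tested shared and that none of the other 4 genes showed. As group means, the levels were 10.67 ± 0.17 (SD, n = 5) in HSC, 10.49 ± 0.16 (SD, n = 4) in CMP, 9.83 ± 0.20 (SD, n = 3) in MEP, 9.65 ± 0.25 (SD, n = 4) in GMP and 8.05 ± 0.25 (SD, n = 6) in L-GMP. HSC and CMP did not differ beyond their spread (log2 difference 0.18, adjusted p = 0.471), nor did MEP and GMP (0.18, adjusted p = 0.447), so the order falls into 3 steps.

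Dnmt3a, read from 1460324_at, was graded more evenly. It stood at 9.35, 9.28, 9.28, 9.41 and 9.22 in HSC, at 8.65, 8.83, 8.95 and 9.0 in CMP, and at 8.18, 8.55, 8.49 and 8.44 in GMP. It was 7.97, 7.88 and 7.25 in MEP and 7.69, 7.92, 7.56, 7.80, 8.03 and 7.44 in L-GMP. HSC, CMP and GMP did not overlap with one another, and L-GMP overlapped with MEP. The means were 9.31 ± 0.07 (SD, n = 5) in HSC, 8.86 ± 0.16 (SD, n = 4) in CMP, 8.42 ± 0.16 (SD, n = 4) in GMP, 7.74 ± 0.22 (SD, n = 6) in L-GMP and 7.70 ± 0.40 (SD, n = 3) in MEP. L-GMP and MEP differed by 0.04, with a 95% interval from -0.27 to 0.34 and an adjusted p of 0.865. Not all Dnmt3a probe sets shared this order. Between HSC and GMP, 3 of the 5 were called higher in HSC (0.89, 0.59 and 0.48), 1423066_at was at 0.38 (adjusted p = 0.0684) and 1423064_at at -0.32 (adjusted p = 0.166). The mean of the kept probe sets gave 0.41 (adjusted p = 0.00874) in place of 0.89. Against MEP, 1423066_at was called higher in L-GMP (0.58, adjusted p = 0.00805), and the other 3 were at 0.23 to 0.36 and not called.

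**Figure D1:**
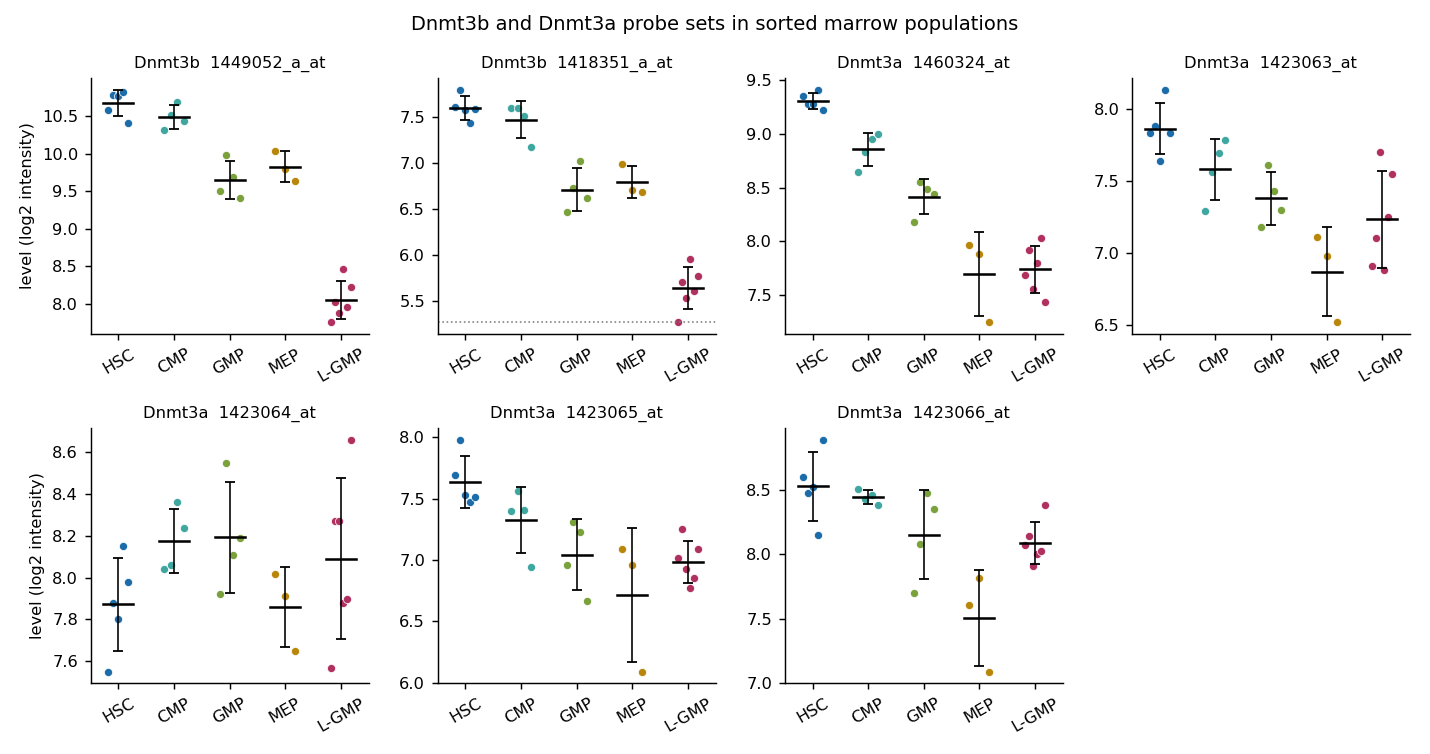
Level (log2 intensity) of the 2 Dnmt3b and 5 Dnmt3a probe sets on each of 22 sorted arrays; points are arrays, thick bars group means, whiskers SD, and the dotted line the floor at 5.27, with a separate vertical scale in each panel. Both Dnmt3b probe sets have all 6 L-GMP arrays below the other groups, whereas only 1460324_at of Dnmt3a has L-GMP wholly below GMP.

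Dnmt1, Uhrf1 and Hells ran in another order, with CMP and GMP on top. Dnmt1 stood at 10.50, 10.37, 10.49 and 10.57 in CMP, at 10.37, 10.46, 10.26 and 10.51 in GMP, and at 10.18, 10.27, 10.31, 10.23, 9.96 and 10.29 in L-GMP. It was 10.19, 10.02 and 10.18 in MEP and 10.22, 10.24, 9.93, 9.47 and 10.10 in HSC. The whole span of its group means was small, from 9.99 ± 0.32 (SD, n = 5) in HSC to 10.48 ± 0.08 (SD, n = 4) in CMP, and replicate 4 of HSC was its lowest array. The suffix of this probe set, 1435122_x_at, marks probes that can also bind other transcripts. The second probe set, 1422946_a_at, also averaged lowest in HSC (9.49) and highest in CMP (10.04).

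Uhrf1 stood at 9.58, 9.82, 9.48 and 9.63 in GMP, at 9.48, 9.59, 9.44 and 9.59 in CMP, and at 9.30, 9.36, 9.55, 9.13, 9.18 and 9.39 in L-GMP. It was 9.26, 9.29, 9.40, 8.85 and 9.10 in HSC and 9.37, 8.89 and 9.36 in MEP. GMP lay above all HSC arrays and overlapped with L-GMP. Hells had the widest range of group means of these 3. It stood at 9.79, 9.87, 9.70 and 9.80 in GMP, at 9.56, 9.61, 9.54 and 9.75 in CMP, and at 9.40, 9.22, 9.22, 9.36, 9.14 and 9.34 in L-GMP. It was 9.19, 8.82, 8.81, 8.88 and 8.99 in HSC and 8.76, 8.21 and 9.07 in MEP. For Hells the L-GMP arrays lay between the progenitors and the stem cell fraction, below every CMP and GMP array, above every MEP array and overlapping with HSC only through replicate 1 of HSC.

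**Figure D2:**
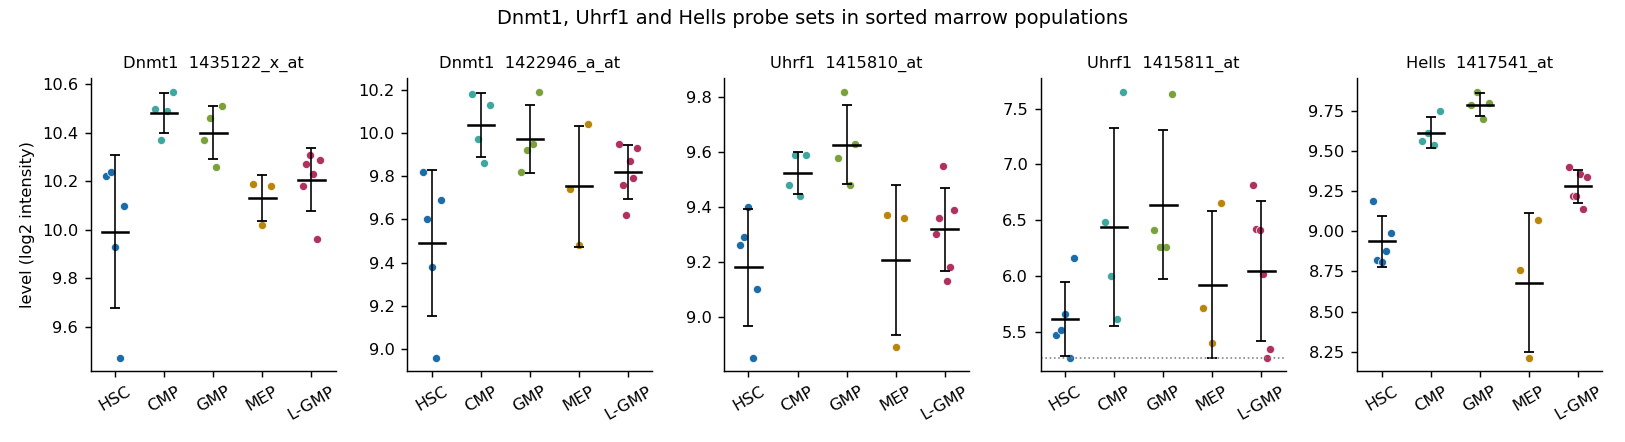
Level (log2 intensity) of the Dnmt1, Uhrf1 and Hells probe sets on each of 22 sorted arrays; points are arrays, thick bars group means, whiskers SD, and the dotted line the floor at 5.27, with a separate vertical scale in each panel. CMP and GMP are on top for Dnmt1 and Hells, and the dim probe set 1415811_at of Uhrf1 is widely spread within groups.

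Over the 5 sorted populations together, all 5 genes passed the moderated F test of limma, as did 62.5% of all genes tested. The adjusted p was 1.46e-12 for Dnmt3b, 2.31e-09 for Dnmt3a, 1.80e-06 for Hells, 0.0114 for Dnmt1 and 0.0123 for Uhrf1. Between the normal stem cell fraction and GMP, all 5 genes were called (41.2% of all genes were), with the de novo enzymes higher in HSC and the other 3 genes lower (19.4% of all genes were called higher and 21.8% lower). Dnmt3b was higher in HSC by 1.02 on the log2 scale (SE 0.14, adjusted p = 6.53e-06, 2.03-fold) and Dnmt3a by 0.89 (SE 0.14, adjusted p = 2.56e-05). Hells was lower in HSC at -0.85 (SE 0.13, adjusted p = 1.39e-05), Uhrf1 at -0.45 (SE 0.12, adjusted p = 0.00538) and Dnmt1 at -0.41 (SE 0.12, adjusted p = 0.0123).

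Between HSC and CMP, 3 of 5 genes were called (13.4% of all genes), Dnmt3a higher in HSC at 0.45 (adjusted p = 0.0330) and Hells and Dnmt1 lower at -0.68 (adjusted p = 9.44e-04) and -0.49 (adjusted p = 0.0113). The Dnmt3a call was lost in 9 of 33 alternatives, with adjusted p up to 0.408, among them the fits without any one of HSC replicates 1 to 4 or CMP replicates 1 and 2 (adjusted p 0.0525 to 0.118). From CMP to GMP, the 2 de novo enzymes were called (16.8% of all genes, 8.6% higher in CMP), with CMP higher by 0.84 for Dnmt3b (adjusted p = 3.28e-04) and by 0.44 for Dnmt3a (adjusted p = 0.0428). The latter was lost in 13 of 33 alternatives, where the adjusted p reached 0.224, among them the fits without HSC replicate 2 or 5, CMP replicate 2, 3 or 4, or GMP replicate 1, 3 or 4 (0.0505 to 0.136). Both Dnmt3a calls rest on 1460324_at. The other 4 Dnmt3a probe sets were at -0.30 to 0.31 in HSC minus CMP and at -0.01 to 0.29 in CMP minus GMP. None of them was called in either comparison. MEP differed from GMP in 3 of 5 genes (27.5% of all genes, 15.6% lower), all lower in MEP. Hells changed by -1.11 (adjusted p = 3.03e-06), Dnmt3a by -0.72 (adjusted p = 0.00145) and Uhrf1 by -0.42 (adjusted p = 0.0264, lost in 4 of 33 alternatives, with 0.0847 without GMP replicate 2 and 0.213 without MEP replicate 2). Against CMP, MEP was lower in 3 of 5 genes (17% of all genes, 10.9% lower), with Dnmt3a at -1.16, Hells at -0.93 and Dnmt3b at -0.66. HSC exceeded MEP in Dnmt3a by 1.61 (adjusted p = 3.51e-08) and in Dnmt3b by 0.84 (adjusted p = 2.12e-04), the 2 of 5 genes called there (32.9% of all genes, 17.4% higher in HSC).

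The leukaemic cells were compared with the normal cells of the same surface markers first. Against GMP, 4 of the 5 genes were called and all 4 were lower in L-GMP, beside 33.5% of all genes called either way and 18.3% called lower. Dnmt3b changed by -1.59 (SE 0.14, adjusted p = 1.20e-08), a 3.02-fold lower level. Dnmt3a changed by -0.68 (SE 0.13, adjusted p = 4.41e-04, 1.60-fold) and Hells by -0.51 (SE 0.12, adjusted p = 0.00240, 1.42-fold). For these 3 genes the L-GMP and GMP arrays did not overlap, and the share of all genes that separated in this way was not counted. The Dnmt3a value is that of 1460324_at. The other Dnmt3a probe sets changed by -0.15 to -0.06, overlapped between L-GMP and GMP and were not called. With the mean of the kept probe sets, Dnmt3a was at -0.21 (adjusted p = 0.173), and 2 of the 5 genes were called. Uhrf1 changed by -0.31 (SE 0.12, adjusted p = 0.0460) with overlapping arrays, and this call was lost in 19 of 34 alternatives, 14 of which left out a single array, with adjusted p up to 0.163. Of the 22 arrays, the call outlived only the loss of HSC replicates 3 and 4, GMP replicate 3, L-GMP replicates 3 and 6 or any MEP array. Dnmt1 was not called (-0.19, 95% interval -0.44 to 0.06, adjusted p = 0.243).

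Against the stem cell fraction, 3 of 5 genes were called (47.2% of all genes). Dnmt3b changed by -2.62 (SE 0.13, adjusted p = 3.34e-13, 6.14-fold) and Dnmt3a by -1.57 (SE 0.13, adjusted p = 9.13e-10, 2.97-fold), both lower in L-GMP. Hells was higher by 0.34 (SE 0.11, adjusted p = 0.0169), while Dnmt1 (0.22, adjusted p = 0.125) and Uhrf1 (0.14, adjusted p = 0.335) were not called. Without HSC replicate 4 the change of Dnmt1 was 0.08 (adjusted p = 0.469). Against CMP, 3 of 5 genes were called, all lower (39.9% of all genes either way, 21.5% lower). The log2 changes were -2.44 for Dnmt3b (adjusted p = 5.75e-12), -1.12 for Dnmt3a (adjusted p = 6.72e-07, a value of 1460324_at, while the other 4 probe sets were at -0.35 to -0.09 and not called) and -0.33 for Hells (adjusted p = 0.0328). The Hells call was lost in 6 of 34 alternatives, at 0.0540 to 0.103 without CMP replicate 2 or 4 or L-GMP replicate 2, 3 or 5. Against MEP, 2 of 5 were called (45.2% of all genes), Dnmt3b lower at -1.78 (adjusted p = 2.80e-09) and Hells higher at 0.60 (adjusted p = 8.09e-04).

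Dnmt3b was thus lower in L-GMP against each of the 4 normal populations, as were 8.43% of all genes. Taken against the mean of the 4 normal populations, its change was -2.11 (SE 0.10, adjusted p = 2.76e-13). That of Dnmt3a was -0.83 (SE 0.10, adjusted p = 4.01e-07). It rests on 1460324_at: the other 4 Dnmt3a probe sets were at -0.20 to 0.07 and not called, and the mean of the kept probe sets gave -0.24 (adjusted p = 0.0211). The changes of Dnmt1, Uhrf1 and Hells were -0.04, -0.07 and 0.02 and not called (49.4% of all genes were called, 25.9% lower). The comparisons of L-GMP share the L-GMP arrays, so their changes are not independent of each other.

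**Figure D3:**
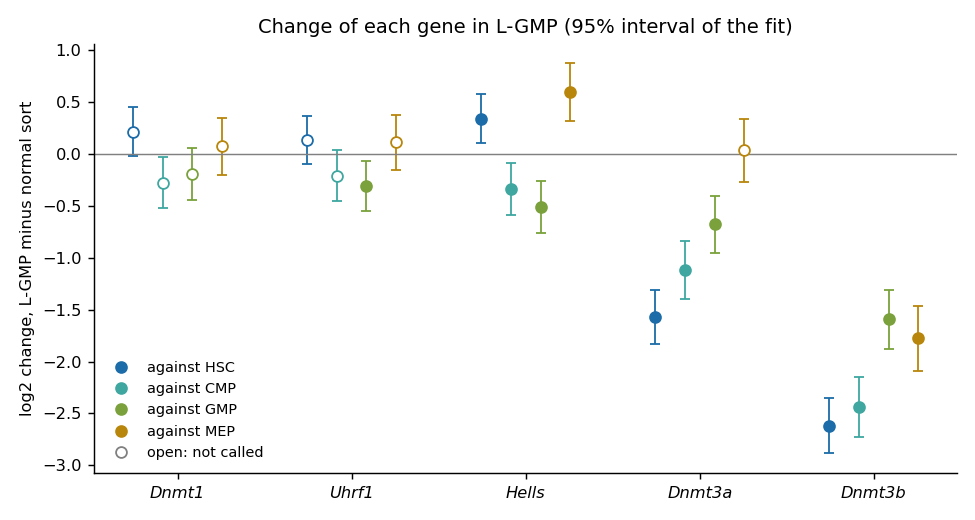
Log2 change of each gene in L-GMP against each of the 4 normal populations (L-GMP minus normal), with 95% intervals of the limma fit; filled points passed an adjusted p under 0.05 and open points did not. Dnmt3b lies between -2.62 and -1.59 in all 4 comparisons, and the changes of Dnmt1 and Uhrf1 stay within 0.31 of 0.

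Whether Dnmt3b and Dnmt3a changed to the same extent was looked at within arrays, on the difference between 1449052_a_at and 1460324_at. Against GMP, the change of Dnmt3b was 0.92 further down on the log2 scale (difference -0.92), and against HSC the difference was -1.05. Exact permutation tests were run on these differences, 2 of 4 such tests, the other 2 being on a pair of Dnmt3a probe sets. The test was chosen after these values were seen, so its p-values are not given. Intensities of different probe sets can be compressed to a different degree, which cannot be separated here from unequal change of the RNA.

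The separate probe sets showed where the gene values rest on 1 measurement. In a fit of every kept probe set, both Dnmt3b probe sets were lower in L-GMP against GMP, 1449052_a_at at -1.59 and 1418351_a_at at -1.07 (SE 0.13, adjusted p = 1.95e-06). The second was dim in L-GMP, at 5.27, 5.71, 5.53, 5.95, 5.61 and 5.77, with replicate 1 on the floor, and it averaged 7.60 in HSC, 7.47 in CMP, 6.71 in GMP and 6.79 in MEP. Of the 5 Dnmt3a probe sets, only 1460324_at was called lower against GMP. The other 4 changed by -0.15 to -0.06 with adjusted p between 0.539 and 0.838, in a fit where 32.8% of probe sets were called.

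Against HSC, 4 of the 5 Dnmt3a probe sets were called lower in L-GMP (47.4% of all probe sets were called either way, 23.8% lower), at -1.57, -0.65, -0.63 and -0.44. The remaining one, 1423064_at, changed by 0.22 (adjusted p = 0.289). The changes of 1460324_at and 1423064_at, which are the lowest and highest of the 5 against HSC and were singled out after their values were seen, lay 1.79 apart (difference -1.79). A permutation test was run on this pair, and its p-value is not given because the pair was picked by these same values. The probe sets were not mapped to transcripts here, so it cannot be said which transcripts each one detects. When each gene was represented by the mean of its kept probe sets, Dnmt3a changed by -0.21 against GMP and was not called (adjusted p = 0.173). For Dnmt1, 1422946_a_at was called higher in L-GMP than in HSC (0.33, adjusted p = 0.0451) and 1435122_x_at was not (0.22, adjusted p = 0.126).

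The genes that act around the methyltransferases did not move as 1 group in L-GMP. Those called against GMP are given by role, beside a median change over all genes of 0.01, with 15.2% of all genes called higher and 18.3% lower. Of 9 methyl-CpG readers, proteins that bind methylated DNA, 3 were tested, 2 rose and none fell (median 0.52). Mbd2 rose by 0.83 (adjusted p = 1.30e-04) and Mbd1 by 0.52 (adjusted p = 7.56e-05). Of 12 demethylation genes, 7 were tested, 4 fell and none rose (median -0.60). Tet1, which oxidises methylcytosine, was at least 2.51-fold lower (adjusted p = 2.43e-05), a bound because 3 of 6 L-GMP arrays were on the floor. Idh1 and Idh2, which make the 2-oxoglutarate that TET enzymes need, changed by -0.73 (adjusted p = 0.0144) and -0.60 (adjusted p = 2.23e-05), and the base excision repair nuclease Apex1 by -0.66 (adjusted p = 1.15e-04).

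Of 22 partners and chromatin cofactors, 18 were tested, 1 rose and 3 fell (median -0.18), shares no larger than over all genes. Suv39h2, a methyltransferase of histone H3 lysine 9, was at least 2.77-fold higher (adjusted p = 4.33e-04), with 1 of 4 GMP arrays on the floor. Cdca7, which recruits Hells to chromatin, changed by -0.67 (adjusted p = 0.00263), its relative Cdca7l by -0.52 (adjusted p = 0.0246) and the heterochromatin protein Cbx1 by -0.25 (adjusted p = 0.0400). Of 9 genes of methyl donor supply, 5 were tested and 2 fell (median -0.37). They were Adk at -0.77 (adjusted p = 2.36e-06) and Ahcy at -0.58 (adjusted p = 1.26e-04), which clear adenosine and S-adenosylhomocysteine, the by-products of methylation.

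Against HSC, 23.4% of all genes were called higher in L-GMP and 23.8% lower. The readers again had 2 of 3 tested genes higher in L-GMP, with Mbd2 at 1.24 (adjusted p = 1.11e-07) and Mbd1 at 0.53 (adjusted p = 1.09e-05). Of the 7 demethylation genes, 2 rose and 3 fell. Tet1 was at least 5.69-fold lower (adjusted p = 3.17e-10), and Apex1 changed by -0.30 (adjusted p = 0.0240), whereas Idh1 rose by 2.11 (adjusted p = 2.38e-08) and Gadd45b by 1.02 (adjusted p = 8.51e-06). Among the 18 cofactors, 1 rose, the RNA methyltransferase Trdmt1 at 0.68 (adjusted p = 5.69e-05), and 7 fell, among them Cdca7l at -0.97 (adjusted p = 4.36e-05), Trim28 at -0.56 (adjusted p = 0.00109) and Cdca7 at -0.44 (adjusted p = 0.0195). In methyl donor supply, Ahcyl1 alone was called, at -0.74 (adjusted p = 2.19e-04).

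Between normal HSC and GMP, 19.4% of all genes were called higher in HSC and 21.8% lower. Tet1 was higher in HSC by 1.18 (adjusted p = 9.95e-05), the direction of Dnmt3a and Dnmt3b. Idh1 was lower in HSC at -2.84 (adjusted p = 3.62e-09), Gadd45b at -0.92 (adjusted p = 1.51e-04) and Apex1 at -0.36 (adjusted p = 0.0192), so 1 of 7 demethylation genes was higher and 4 were lower. Suv39h2 was at least 3.84-fold higher in HSC (adjusted p = 2.44e-05) and the remodeller Smarca4 was higher by 0.31 (adjusted p = 0.00443). Trdmt1 was lower at -0.61 (adjusted p = 7.02e-04). These were the 3 genes called among 18 cofactors, a smaller share than the 41.2% of all genes called. Mbd2 was the reader called, at -0.42 (adjusted p = 0.0298). Adk (-0.61, adjusted p = 4.82e-05) and Ahcy (-0.54, adjusted p = 2.99e-04) were the 2 called of 5 genes of methyl donor supply, about the share of all genes.

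Because Dnmt1 and Uhrf1 act on newly replicated DNA, genes of DNA replication and S phase were set beside the machinery. Of 28 such genes tested, 15 were lower in HSC than in GMP and none was higher (median -0.38, against 0.01 over all genes). Over all genes, 21.8% were called lower in HSC and 19.4% higher. Rrm2, a subunit of the enzyme that makes deoxyribonucleotides, changed by -1.53 (adjusted p = 3.11e-06), the replication initiation factor Cdc45 by -1.17 (adjusted p = 2.07e-04), Ccne2, which encodes cyclin E2, by -1.07 (adjusted p = 1.15e-06), and Gins1, a part of the replicative helicase, by -0.995 (adjusted p = 8.80e-05). Of 29 genes of G2 and M phase, 22 were lower in HSC and none higher (median -0.74), with Aurkb at -1.31, Kif2c at -1.24, Ube2c at -1.12 and Bub1 at -1.10 (adjusted p from 5.13e-05 to 0.00190). Between L-GMP and GMP, the replication list had 4 genes lower in L-GMP and none higher (median -0.09). Those shares were no larger than the 18.3% of all genes called lower and 15.2% called higher. The 4 were Rfc4 at -0.61 (adjusted p = 0.00316), Pola1 at -0.61 (adjusted p = 9.76e-04), Rpa2 at -0.42 (adjusted p = 0.0441) and Fen1 at -0.38 (adjusted p = 0.00432). In the same comparison the mitotic list had 1 gene higher in L-GMP, Ccnb2 at 0.54 (adjusted p = 0.0412), and none lower.

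Against HSC, L-GMP had 11 of 28 replication genes higher and 2 lower (median 0.23), together about the 47.2% of all genes called. Among those higher were Rrm2 at 1.47 (adjusted p = 6.86e-07), Cdc45 at 1.25 (adjusted p = 2.01e-05), Ccne2 at 1.10 (adjusted p = 7.70e-08) and the thymidine kinase Tk1 at 0.80 (adjusted p = 0.00456). Of the 29 mitotic genes 28 were higher and none lower (median 0.84), led by Aurka at 1.43, Ube2c at 1.24, Kif2c at 1.17 and Aurkb at 1.12 (adjusted p from 1.08e-06 to 1.33e-04). Dnmt3a and Dnmt3b were lower in L-GMP in a comparison where most mitotic genes were higher.

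Array by array, the level of Dnmt1 correlated with the mean level of the 28 replication genes at r = 0.83 over the 22 sorted arrays (0.74 after removal of group means), that of Hells at 0.74 (0.62) and that of Uhrf1 at 0.71 (0.49). Dnmt3a and Dnmt3b correlated with it at -0.40 (-0.45) and -0.34 (-0.30). Replicate 4 of HSC and replicate 2 of MEP had the lowest replication levels (8.96 and 9.35). Without these 2 arrays r was 0.62 for Dnmt1, 0.82 for Hells and 0.47 for Uhrf1, so the relations of Dnmt1 and Uhrf1 rest in part on them. Dnmt3a and Dnmt3b correlated with each other at 0.81 (0.37 after removal of group means), Dnmt1 and Uhrf1 at 0.79 (0.63) and Uhrf1 and Hells at 0.77 (0.46). These correlations are descriptions over arrays that share groups and 1 experiment, and no test was made.

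**Figure D4:**
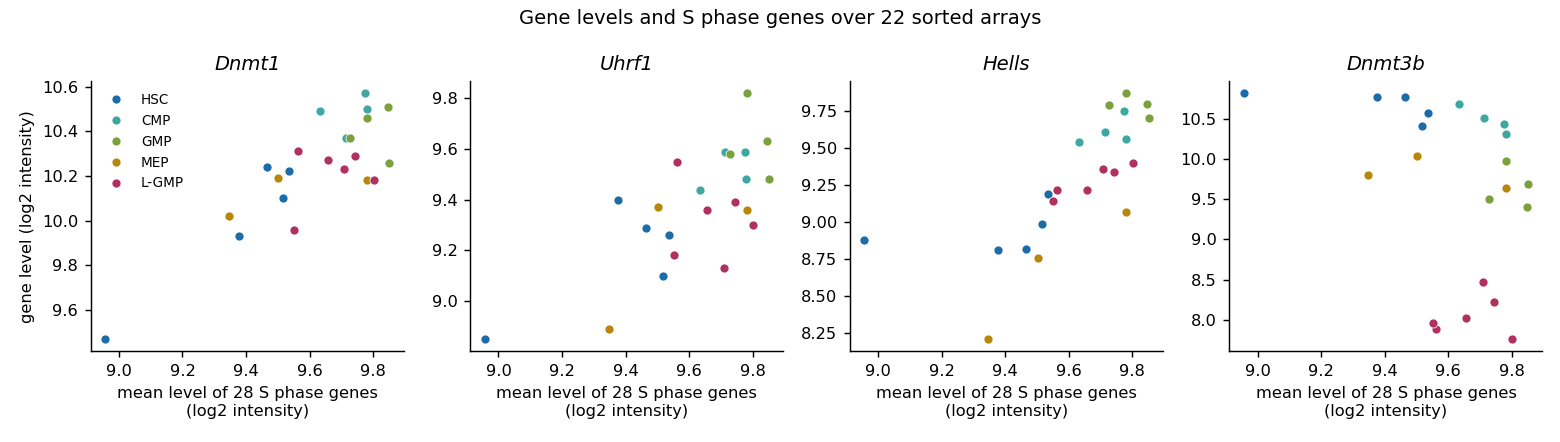
Level of Dnmt1, Uhrf1, Hells and Dnmt3b (vertical, log2 intensity) against the mean level of 28 genes of DNA replication and S phase (horizontal, log2 intensity) on 22 sorted arrays, coloured by population, with a separate vertical scale in each panel. The first 3 genes rise with the replication genes (r = 0.83, 0.71 and 0.74), whereas Dnmt3b separates into the L-GMP arrays and the normal arrays.

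The 3 genes whose levels were most like each enzyme over the 22 sorted arrays were listed by Pearson r over the 8422 genes. For Dnmt3b they were Dab2ip (r = 0.986), a Ras GTPase-activating protein, Lzts2 (0.982) and the tetraspanin Tspan4 (0.979). Dab2ip averaged 9.53 in HSC, 9.07 in CMP, 8.02 in GMP, 8.14 in MEP and 5.85 in L-GMP, and Lzts2 was on the floor on all L-GMP arrays. After removal of group means these correlations were 0.63, 0.32 and 0.50, so much of the likeness lies in the group means. For Dnmt3a they were N4bp3 (0.948), Tmem176a (0.945) and Dipk1b (0.937), with 0.49, 0.52 and 0.14 after removal of group means.

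For Dnmt1 they were the kinetochore genes Cenph (0.870) and Cenpk (0.869) and Fignl1 (0.858), a gene of recombination repair, which kept 0.82, 0.83 and 0.78 after removal of group means. For Uhrf1 they were Cdca4 (0.849), the exonuclease Exo1 (0.803) and Selenoh (0.795). For Hells they were the chromatin protein Dek (0.891), Cebpa (0.878), a transcription factor of granulocyte and monocyte progenitors, and the kinetochore gene Dsn1 (0.873). Cebpa averaged 9.03 in GMP, 7.86 in L-GMP and 6.56 in MEP, and its r with Hells was 0.08 after removal of group means.

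Measures that moved with the groups were as follows. RNA integrity was read from the Actb and Gapdh control probe sets as log2 of 3' over 5' intensity, which rises as RNA is shorter, and it was 2.85 ± 0.08 (SD, n = 6) in L-GMP, 2.92 ± 0.31 (SD, n = 4) in GMP and 3.09 ± 0.15 (SD, n = 5) in HSC. With this ratio as a covariate, the 4 calls against GMP held, and Hells was not called against HSC (0.31, adjusted p = 0.0731). Of 7 mature macrophage markers, 5 exceeded the median of the experiment on some L-GMP array and 4 on some GMP array. Their mean level ranged over arrays from 8.03 to 8.51 in L-GMP and from 7.43 to 7.62 in GMP. Adgre1 averaged 10.48 in L-GMP and 7.36 in GMP, and Marco was on the floor on all sorted arrays. Over all genes, 18.3% were called lower and 15.2% higher in L-GMP against GMP, and 23.8% lower and 23.4% higher against HSC. Against GMP, 3 of 7 granulocyte-monocyte markers were called lower in L-GMP (median -0.41), as were 3 of 5 stem and early progenitor markers (median -0.49). So were 1 of 8 megakaryocyte-erythroid and 2 of 4 T and NK cell markers. Those called higher were 2 of 5 macrophage markers (median 0.71), 1 of 3 B cell markers and 1 of 4 stroma and endothelium markers. Against HSC, all 5 stem markers tested were lower in L-GMP (median -1.70), the direction of Dnmt3a and Dnmt3b, and 6 of 7 granulocyte-monocyte markers were higher and 1 lower (median 1.71). Also higher there were 4 of 5 macrophage markers (median 2.19), 2 of 4 T and NK cell markers and 1 of 3 B cell markers. Lower were 3 of 8 megakaryocyte-erythroid markers and 1 of 4 stroma and endothelium markers. For the other cell types, the markers above the median on some array numbered 2 of 6 in L-GMP and 3 of 6 in GMP for stem cells, 7 of 7 in both for granulocyte-monocyte cells, and 3 of 8 and 4 of 8 for megakaryocyte-erythroid cells. They were 3 of 6 and 4 of 6 for T and NK cells, 3 of 5 in both for B cells and 3 of 7 in both for stroma and endothelium. The part of these markers in the changes of the methylation genes was not tested.

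In the transduced experiment, which asked what MLL-AF9 does to GMP, no gene of the machinery was called. The test of limma called 0 of 5, beside 0.0276% of all genes (2 of 7235), and 1 of 5 had an unadjusted p under 0.05, beside 10.2% of all genes. With the replicate number as a block, also 0 of 5 were called (1.74% of all genes) and 2 of 5 had an unadjusted p under 0.05 (18.9% of all genes). Dnmt3b stood at 9.05, 10.08 and 10.14 in the GFP arrays and at 10.52, 10.62 and 10.32 in the MLL-AF9 arrays. The arrays did not overlap, as was so for 17.5% of all genes (8.47% with MLL-AF9 higher), and replicate 1 of GFP was far below the other 2. The change was 0.73 (SE 0.29, adjusted p = 0.483), and with the block it was 0.73 (SE 0.24, adjusted p = 0.197). Without replicate 1 of GFP it was 0.38 (adjusted p = 0.738). The second probe set stood at 8.92, 10.12 and 9.87 in GFP and at 10.15, 10.28 and 10.12 in MLL-AF9, a change of 0.55 (adjusted p = 0.587).

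Hells stood at 10.42, 11.13 and 11.15 in GFP and at 11.03, 11.41 and 11.25 in MLL-AF9, with replicate 1 again the lowest of each group (change 0.33, adjusted p = 0.646, with the block 0.257). Dnmt3a also had replicate 1 lowest in both groups, with 8.56, 9.33 and 9.56 in GFP and 8.80, 9.26 and 9.63 in MLL-AF9 (change 0.08, 95% interval -0.65 to 0.81, adjusted p = 0.963). With the block the interval was -0.19 to 0.35 (adjusted p = 0.752). Replicate 1 of GFP also had the lowest 3' to 5' ratio of the 6 arrays, 1.14 against 1.27 to 1.74 on the others, and the part of that in these values was not tested. Among the Dnmt3a probe sets, 1423064_at had the widest change, from 7.74, 8.21 and 8.19 in GFP to 9.05, 9.11 and 8.42 in MLL-AF9 (0.81, SE 0.23, adjusted p = 0.451, with the block 0.130).

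The brightest probe set of Dnmt1 was 1422946_a_at in this experiment, and not 1435122_x_at as in the sorted one. It was at 12.03, 12.06 and 12.08 in GFP and at 12.08, 12.07 and 12.04 in MLL-AF9. Uhrf1 was at 11.25, 11.26 and 11.39 against 11.35, 11.39 and 11.31. The changes of Dnmt1 and Uhrf1 were 0.01 (95% interval -0.22 to 0.24) and 0.05 (95% interval -0.20 to 0.29). In the limma fit of every kept probe set, 1435122_x_at of Dnmt1 changed by 0.10 (adjusted p = 0.827). The dimmer 1415811_at of Uhrf1 changed by 0.26 (adjusted p = 0.824). Of 5 mature macrophage markers tested there, 0 were called, and with the block 3 were lower with MLL-AF9 (median -1.22), beside 1.74% of all genes called. With the block, 1 of 4 stem and early progenitor markers was also called higher (median 0.47) and 1 of 2 B cell markers lower (median -0.41), shifts whose part in these values was not tested. No gene of the 6 pathway and cell cycle lists was called, with or without the block. The 2 of widest change per list included Gadd45b at -0.51 (adjusted p = 0.477), Chaf1b at 0.44 (adjusted p = 0.483), Ndc80 at -0.43 (adjusted p = 0.483), Mbd3 at 0.42 (adjusted p = 0.483), Atrx at -0.38 (adjusted p = 0.801) and Mtrr at 0.29 (adjusted p = 0.727). The changes of the machinery in L-GMP and in transduced GMP come from experiments that cannot be compared in level, and the difference between them was not tested.

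**Figure D5:**
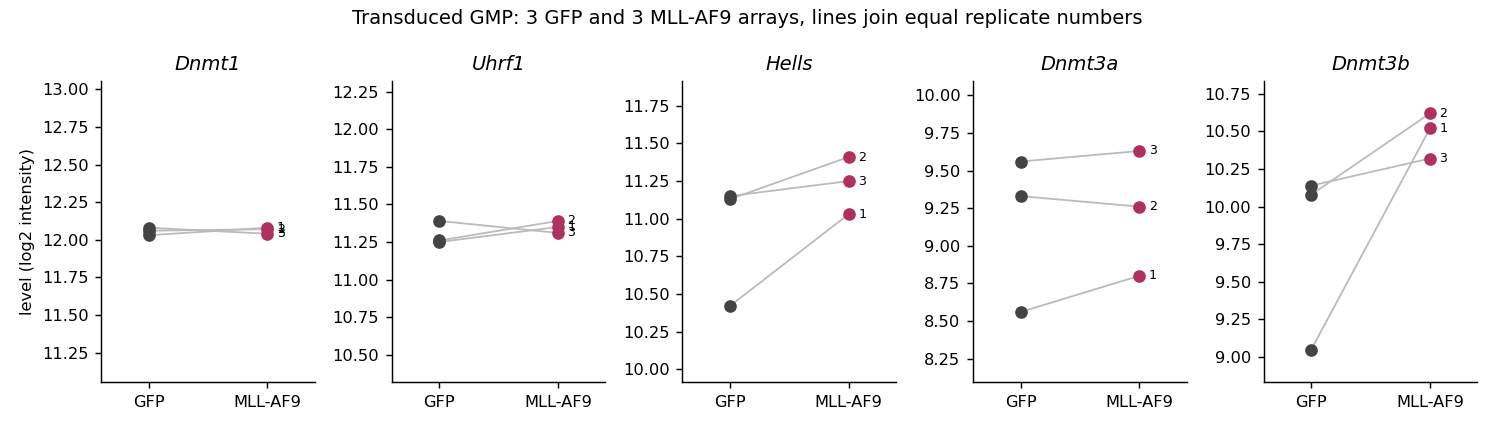
Level (log2 intensity) of the 5 genes in GMP expressing GFP or MLL-AF9, 3 arrays each; points are arrays, grey lines join equal replicate numbers (numbered at the right), and each panel spans 2 log2 units. Dnmt1 (1422946_a_at) and Uhrf1 (1415810_at) are flat, and the Dnmt3b arrays of the 2 groups do not overlap, with replicate 1 of GFP the lowest at 9.05.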

How the data were processed

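The submitters' processing notes name MAS5 and give no version. The authors deposited linear intensities of probe sets, per those notes the output of MAS5. Gene names came from the platform annotation. Each array was scaled to the common 2% trimmed mean of its experiment, values below the 25th percentile were set to that floor, and log2 was taken. After scaling, a change in the total RNA of a cell can no longer be seen. Probe sets above the experiment's median on at least 3 arrays were kept, and a gene was its kept probe set of highest mean (64 control probe sets were left out). Each array held 187 to 413 values at or below 0, whose origin the sources used here do not state.

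The 22 sorted arrays shared 1 limma fit (limma 3.58.1, R 4.3.3, lmFit and eBayes, two-sided) and the 6 transduced arrays another, with Benjamini-Hochberg adjustment over all genes. The scripts were tested on simulated data. Errors are SD of levels and SE of changes. The number of arrays per group, 3 to 6, limits the precision. The main fit of the transduced experiment used no pairs. Its replicate block, an alternative fit, took equal replicate numbers as pairs, because the deviations of 3 of 3 same-numbered pairs correlated (r from 0.379 to 0.596), although replicate 3 of GFP and replicate 2 of MLL-AF9 also correlated (0.474). In the sorted experiment 18 of 37 same-numbered pairs exceeded 0.1, and differently numbered pairs were not compared. The genes and lists were chosen with earlier results of these data known. Named list genes are up to 4 called genes of largest change per list and comparison, or 2 where none was called, and 3 genes most like each member. Marker lists for stem, granulocyte-monocyte, megakaryocyte-erythroid, macrophage, T, B and stromal cells were checked.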

Additional observations from a re-analysis of the deposited data

Results flagged for a closer look

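In GMP, replicate 4 of the dim Uhrf1 probe set 1415811_at stood at 7.63, and the next array was at 6.41, a gap larger than Dixon's 95% limit for 4 samples. It was the only such array among 48 groups checked, where chance flags about 1 in 20. The brighter Uhrf1 probe set 1415810_at read 9.63 on that array, between the others of its group.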

How the results depend on the processing

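Of 55 changes of the 5 genes in the sorted experiment 32 were called, and 25 of these stayed called under every alternative run, which were other scaling, floors, filters, probe set rules, covariates, fits and arrays left out. In the sorted experiment, 8 uncalled values became called: Dnmt1 in L-GMP minus CMP (adjusted p = 0.0160 without HSC replicate 4, 0.0331 with only both groups) and in MEP minus CMP (0.0225 without HSC replicate 4, 0.0440 not rescaled), Hells in HSC minus MEP (0.0152 without MEP replicate 3, 0.0348 not rescaled) and Uhrf1 in HSC minus CMP (0.0459 without HSC replicate 3, 0.0417 without MEP replicate 2). Dnmt3b against GMP ranged from -1.68 to -1.33 and was always called. The number of genes called between CMP and GMP was 1 in place of 2 with the deposited values not rescaled, without the filter, with the mean of the kept probe sets, with the 3'/5' ratio as covariate and without replicate 1 of HSC, CMP and GMP together, and 1 to 2 when single arrays were left out. Against GMP, L-GMP had 2 called genes in place of 4 with the mean of the kept probe sets. In the sorted experiment, the replicate block ended 3 calls, those of Dnmt3a in HSC minus CMP (adjusted p = 0.0532), Hells in L-GMP minus CMP (0.0622) and Uhrf1 in L-GMP minus GMP. Whether equal numbers pair the sorted arrays is not known. In the transduced experiment the block on the replicate pair left 0 of 5 called, and with the block and without pair 3 (chosen after seeing the data) Dnmt3b was called (1 of 5, change 1.01, adjusted p = 0.0420).

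No called change reversed. Among uncalled changes near 0, 18 changed sign. With the values not rescaled these were Dnmt1 and Uhrf1 in HSC minus MEP (0.00382 and 0.12) and Dnmt1 in MLL-AF9 minus GFP (-0.00213). With the replicate block it was Uhrf1 in HSC minus MEP (0.041), with the ratio as covariate Hells in L-GMP minus the normal mean (-0.00132), and with the block and without pair 1 Dnmt1 in MLL-AF9 minus GFP (-0.0106). Leaving out single arrays gave ranges across 0 of -0.076 to 0.0059 for Dnmt1 and -0.035 to 0.073 for Hells in L-GMP minus the normal mean, -0.048 to 0.20 for Uhrf1 and -0.19 to 0.17 for Dnmt3a in L-GMP minus MEP, -0.18 to 0.060 for Uhrf1 in HSC minus MEP, and -0.00203 to 0.025 for Dnmt1 and -0.21 to 0.30 for Dnmt3a in MLL-AF9 minus GFP. Not rescaling moved the median of all genes by over 0.1 only in HSC minus MEP (0.14).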
